A study of Mus musculus with 9 samples.

Results

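The nuclear-encoded subunits of respiratory complexes II to V were examined in ribosome-bound RNA of 3 mouse fat depots. The 33 genes were chosen by name: 4 of succinate dehydrogenase (complex II), 9 of cytochrome bc1 (complex III), cytochrome c, 6 of cytochrome oxidase (complex IV) and 13 of ATP synthase (complex V). ATP synthase subunit c and most oxidase subunits with tissue isoforms were not among them, though Cox6b1 was a member and Cox6b2 was left out. All 33 were found among the 22527 symbols of the table, each on 1 line, and all 33 passed the filter on low values (at least 1 FPKM in at least 3 libraries), as did 10374 genes in all.

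Brown fat (BAT), the inguinal white depot under the skin (iWAT) and the epididymal white depot of the abdomen (eWAT) were each sampled in 3 libraries. All mice were C57BL/6, aged 8 weeks and listed as wild type. Ribosomes were pulled down from whole-tissue homogenates with an antibody against GFP; the labels do not say which cells carried a GFP tag, though the series is titled for adipocytes and the deposited table is named for adiponectin, an adipocyte hormone. Nor do they say whether the libraries of a depot came from separate animals, so that p-values measure the spread between these libraries. Values are FPKM, fragments scaled to transcript length and to the mapped fragments of a library, so levels of different genes are compared per length.

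In the inner mitochondrial membrane, complex II passes electrons from succinate to ubiquinone, complex III passes them on to cytochrome c, and complex IV passes them from cytochrome c to oxygen. Complexes III and IV pump protons outward, and ATP synthase lets protons flow back through its membrane part (Fo) to drive ATP formation in its head (F1). Brown adipocytes are rich in mitochondria, and their uncoupling protein Ucp1 lets protons return without making ATP, which releases heat. White adipocytes store fat and hold fewer mitochondria.

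Ucp1 separated the brown from the white libraries, while no marker used here checked the labels of the 2 white depots: the 4 epididymis markers were at 0 in all eWAT libraries. Ucp1 lay at 2434 to 3054 FPKM in BAT and at 0.630 to 3.38 in the white depots, and the adipocyte hormone Adipoq was present in all 9 libraries, at 456 FPKM or more. BAT 3 is named brown fat in its title and source but inguinal fat in its tissue field. Its Ucp1 level was 3054 FPKM, and it was kept with BAT. BAT 3 was the highest BAT library for all 4 white adipocyte markers (Nnat 36.1 against 4.17 and 4.61 FPKM) and for the stromal marker Dpt (13.2 against 3.21 and 1.58). The stromal marker Ly6a was highest in BAT 2 (4.06 FPKM, against 1.80 in BAT 1 and 2.20 in BAT 3). Of the other stromal markers, Pi16 and Dpp4 were highest in BAT 3 and Pdgfra and Cd34 in BAT 1, all at 0.304 FPKM or less. The Nnat and Dpt levels of BAT 3 lay below every iWAT library, at 291 and 75.4 FPKM or more. Among the brown markers, only Elovl3 was not highest in BAT 3. Depth, estimated from single-read steps in the low values, was 11.1 to 21.4 M reads in BAT, 2.91 to 4.65 in iWAT and 4.45 to 16.2 in eWAT. Summed FPKM of 13 skeletal muscle markers was 63.4 to 155 in BAT, 1839 to 2531 in iWAT and 228 to 1315 in eWAT, and no muscle marker was at 0 throughout any depot. Summed epithelial markers were 18.7 to 39.4 in BAT, 131 to 362 in iWAT and 52.9 to 179 in eWAT, with Krt18 at 0 in all BAT and iWAT libraries and Epcam at 0 in all BAT libraries. Stromal progenitor markers summed to 5.55 to 16.0, 95.6 to 361 and 38.0 to 68.9 FPKM. Macrophage, endothelial and epididymis markers each summed to at most 4.82 FPKM in any library.

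Nearly all subunits were higher in brown fat than in either white depot. Together the 33 genes held 12.5% to 13.2% of the FPKM sum of a BAT library, 2.59% to 4.29% of an iWAT library and 3.06% to 4.00% of an eWAT library. Against iWAT, 32 of 33 were called higher in BAT (limma, Benjamini-Hochberg adjusted p under 0.05), where 34.5% of all tested genes were, and none was called lower, where 22.9% of all genes were. Their median log2 difference was 2.55, against 0.23 over all tested genes. For 32 members every BAT library lay above every iWAT library, which held for 38.5% of all genes; none lay wholly below, which held for 27.2%. In these bulk samples, fewer cells of a type and less RNA per cell cannot be told apart.

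Against eWAT, 31 members were called higher in BAT (20.2% of all tested genes) and 1, Atpif1, was called lower (13.5% of all genes). The median log2 difference was 2.26, against -0.02 over all genes. The BAT and eWAT libraries did not overlap for 31 members with BAT higher (32.0% of all genes) and for 1 with BAT lower (22.7%). Both comparisons use the same BAT libraries, so they are not independent of each other. Every BAT library was also deeper than every iWAT library and had lower muscle and epithelial sums than every white library; the part of these differences in the subunit values was not tested. Without eWAT 2 and 3, the eWAT libraries with the high muscle sums, eWAT is 1 library, assumed to vary like those of the other depots. There 23 members were called higher in BAT, with a median log2 difference of 2.0, where 9.31% of all genes were called higher. Under quantile normalization the medians were 1.93 against iWAT and 1.68 against eWAT.

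**Figure D1:**
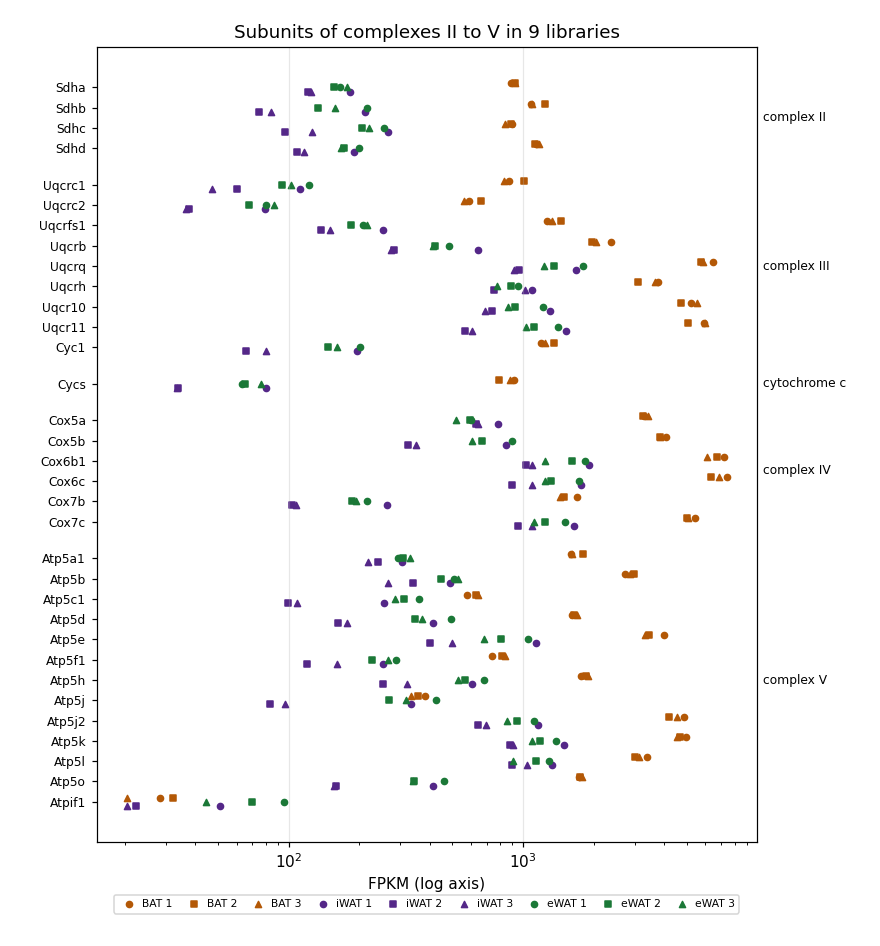
FPKM (log axis) of the 33 subunits in each of the 9 libraries, grouped by complex; colour gives the depot and marker shape the replicate number. The brown points stand to the right of the white-fat points for every gene except Atpif1 and Atp5j, and iWAT 1 (purple circles) is the rightmost iWAT library for 33 of 33 genes.

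The order of the subunits within a depot differed little between depots. Cox6c was the highest member in BAT at 6863 ± 529 FPKM (SD, n = 3), and Cox6b1 was the highest in iWAT at 1344 ± 493 and in eWAT at 1566 ± 302. These neighbours did not differ beyond their spread, since Cox6b1 was at 6667 ± 533 FPKM in BAT. Cox6c ranked 5 among all genes of the table in BAT, 45 in iWAT and 47 in eWAT. Across the 33 mean levels, Spearman's rho was 0.918 between BAT and iWAT, 0.903 between BAT and eWAT and 0.978 between iWAT and eWAT, as a description over genes that share their libraries. Short transcripts had the higher FPKM values (rho between level and transcript length of -0.59 to -0.62 over the 33 genes in the 3 depots).

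Promoters are shown for the member with the largest difference (Cycs), for the complex III member with the largest (Uqcrc1), for the main catalytic subunit of ATP synthase (Atp5b) and for a subunit that departed from the rest (Atp5j). The RefSeq table on GRCm38.p6 held windows from 250 bases before to 50 bases after the start for 26 of the 33 members. Searched on both strands, the letters GCATGCGC (core of the NRF-1 site) were found for 6 of the 26 (23.1%, against 3.0% of 27025 genes), AAGGTCA (estrogen-related receptor) for 5 (19.2% against 5.4%), and CCGGAAGT (GABP and the ETS family) for 3 (11.5% against 4.3%). AAGATGGC (YY1) was found for 3 (11.5% against 3.2%), GGGCGG (Sp1) for 9 (34.6% against 38.2%) and TATAAA for 1 (3.8% against 15.7%). No match of a motif overlapped one of another motif in these windows. NRF-1, GABP and the estrogen-related receptors are known regulators of respiratory genes, but a match is a description of letters, not a binding site. The windows below run 5′ to 3′ on the gene's strand, with matches in capitals: the NRF-1 core at -60 to -53 and GGGCGG at 32 to 37 in Cycs, 2 overlapping NRF-1 cores (one on each strand) at 31 to 40 in Uqcrc1, GGGCGG at -199 to -194 and, on the other strand, at -45 to -40 in Atp5b. Atp5j has 2 listed starts, the first with GGGCGG on the other strand at -88 to -83 and 35 to 40, the second with AAGATGGC at -88 to -81. The positions are chr6:50566520-50566819 (minus strand) for Cycs, chr9:108936398-108936697 (plus) for Uqcrc1, chr10:128083057-128083356 (plus) for Atp5b, and chr16:84835576-84835875 and chr16:84834927-84835226 (minus) for Atp5j. The bases after the start were found in a GENCODE coding transcript for 23 of the 29 member windows, those of Cycs not among them.
Cycs: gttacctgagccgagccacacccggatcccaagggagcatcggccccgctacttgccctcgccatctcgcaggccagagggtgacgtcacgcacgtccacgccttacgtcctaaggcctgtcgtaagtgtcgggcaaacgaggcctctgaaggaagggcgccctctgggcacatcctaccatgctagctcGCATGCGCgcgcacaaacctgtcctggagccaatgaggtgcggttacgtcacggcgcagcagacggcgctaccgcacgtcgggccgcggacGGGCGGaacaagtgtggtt
Uqcrc1: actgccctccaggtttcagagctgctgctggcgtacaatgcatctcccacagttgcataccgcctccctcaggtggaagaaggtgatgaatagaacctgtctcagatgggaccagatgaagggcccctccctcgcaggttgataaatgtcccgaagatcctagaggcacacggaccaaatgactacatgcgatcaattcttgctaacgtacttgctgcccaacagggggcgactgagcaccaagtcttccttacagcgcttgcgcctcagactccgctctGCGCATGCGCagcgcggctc
Atp5b: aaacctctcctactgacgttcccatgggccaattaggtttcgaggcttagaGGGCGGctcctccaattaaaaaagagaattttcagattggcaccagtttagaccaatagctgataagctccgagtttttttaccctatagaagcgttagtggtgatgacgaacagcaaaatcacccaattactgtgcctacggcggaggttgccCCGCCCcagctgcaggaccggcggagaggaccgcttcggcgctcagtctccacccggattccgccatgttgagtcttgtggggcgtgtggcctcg
Atp5j, window 1: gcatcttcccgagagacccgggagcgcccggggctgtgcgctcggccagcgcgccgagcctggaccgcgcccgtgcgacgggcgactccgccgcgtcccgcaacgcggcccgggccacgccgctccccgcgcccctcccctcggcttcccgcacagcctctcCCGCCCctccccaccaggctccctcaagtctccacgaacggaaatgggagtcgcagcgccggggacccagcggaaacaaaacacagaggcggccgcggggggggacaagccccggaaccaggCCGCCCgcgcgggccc
Atp5j, window 2: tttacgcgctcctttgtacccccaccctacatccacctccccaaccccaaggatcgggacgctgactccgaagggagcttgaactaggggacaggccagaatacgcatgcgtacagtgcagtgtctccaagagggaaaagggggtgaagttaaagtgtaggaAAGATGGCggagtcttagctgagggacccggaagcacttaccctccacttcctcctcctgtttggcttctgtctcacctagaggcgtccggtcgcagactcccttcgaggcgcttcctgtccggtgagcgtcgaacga

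All 4 subunits of complex II were higher in BAT than in both white depots, with median log2 differences of 2.89 against iWAT and 2.56 against eWAT. Sdha, the flavoprotein that oxidises succinate (mm9 chromosome 13, 74459702 to 74487728, minus strand), measured 886, 924 and 924 FPKM in BAT 1 to 3, 183, 121 and 124 in iWAT 1 to 3 and 165, 156 and 177 in eWAT 1 to 3. Its BAT libraries all lay above the white ones, which overlapped each other. The differences were 6.48-fold against iWAT (log2 2.70, SE 0.22, adjusted p = 1.53e-05) and 5.48-fold against eWAT (log2 2.45, SE 0.22, adjusted p = 2.62e-05), on the scale of FPKM + 1. Sdhb, the iron-sulfur subunit that carries electrons to ubiquinone (chromosome 4, 140517118 to 140535108, plus strand), measured 1085, 1246 and 1092 FPKM in BAT, 212, 75.0 and 84.4 in iWAT and 217, 134 and 158 in eWAT. Here iWAT 1 lay with the eWAT libraries, well above the other 2 iWAT libraries. Sdhb differed by 10.2-fold against iWAT (log2 3.35, SE 0.37, adjusted p = 8.03e-05) and 6.82-fold against eWAT (log2 2.77, SE 0.37, adjusted p = 0.000288). The membrane anchors Sdhc and Sdhd, which hold the quinone site, differed by 5.87-fold and 8.47-fold against iWAT and by 3.87-fold and 6.34-fold against eWAT.

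Apart from cytochrome c, the largest difference in both comparisons was that of Uqcrc1 in complex III. All 9 members were higher in BAT in both comparisons, with medians of 2.81 against iWAT and 2.38 against eWAT. Uqcrc1, a core protein of the matrix side (chromosome 9, 108838661 to 108851685, plus strand), measured 869.9, 1013 and 830.1 FPKM in BAT, 112, 60.5 and 47.2 in iWAT and 122, 93.7 and 102 in eWAT. All white libraries lay far below all BAT libraries. The difference was 13.0-fold against iWAT (log2 3.70, SE 0.30, adjusted p = 1.56e-05) and 8.51-fold against eWAT (log2 3.09, SE 0.30, adjusted p = 4.38e-05). The other core protein, Uqcrc2 (chromosome 7, 127778690 to 127802992, plus strand), measured 589, 659 and 562 FPKM in BAT, 79.2, 37.5 and 36.6 in iWAT and 80.2, 67.8 and 86.5 in eWAT. Its differences, 12.4-fold (log2 3.63, SE 0.30) and 7.65-fold (log2 2.94, SE 0.30), were close to those of Uqcrc1, with adjusted p of 1.53e-05 and 5.13e-05.

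Cyc1, cytochrome c1, which hands electrons to cytochrome c (chromosome 15, 76173953 to 76176364, plus strand), measured 1189, 1351 and 1242 FPKM in BAT, 195, 65.8 and 80.1 in iWAT and 202, 147 and 161 in eWAT. The gap between iWAT 1 and the other iWAT libraries was again wide, and all stayed below BAT (12.3-fold, log2 3.63, SE 0.36, adjusted p = 4.54e-05 against iWAT; 7.43-fold, log2 2.89, SE 0.36, adjusted p = 0.000188 against eWAT). Uqcrfs1, the Rieske iron-sulfur protein that takes electrons from ubiquinol (chromosome 13, 30632177 to 30637231, minus strand), measured 1263, 1455 and 1332 FPKM in BAT, 253, 137 and 150.5 in iWAT and 208, 185 and 216 in eWAT. Its white depots overlapped, and BAT was 7.74-fold above iWAT (log2 2.95, SE 0.26, adjusted p = 2.25e-05) and 6.63-fold above eWAT (log2 2.73, SE 0.26, adjusted p = 3.34e-05). Uqcrh, the small acidic hinge protein that helps cytochrome c1 meet cytochrome c (chromosome 4, 115739570 to 115747676, minus strand), measured 3769.8, 3103 and 3655 FPKM in BAT, 1097, 753 and 1024 in iWAT and 951, 886 and 776 in eWAT. It had the smallest difference of the complex, 3.70-fold against iWAT (log2 1.89, SE 0.23, adjusted p = 0.000135) and 4.03-fold against eWAT (log2 2.01, SE 0.23, adjusted p = 0.000111). The other small subunits, Uqcrb, Uqcrq, Uqcr10 and Uqcr11, were 5.26-fold to 7.02-fold higher than in iWAT and 4.17-fold to 5.20-fold higher than in eWAT.

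Cycs, cytochrome c, the soluble carrier between complexes III and IV (chromosome 6, 50512562 to 50516537, minus strand), had the largest difference of all members in both comparisons. It measured 913, 793 and 881 FPKM in BAT, 80.2, 33.8 and 33.3 in iWAT and 63.3, 65.1 and 76.4 in eWAT. The white libraries overlapped only through iWAT 1, and none came near BAT. BAT was 18.8-fold above iWAT (log2 4.23, SE 0.32, adjusted p = 1.10e-05) and 12.5-fold above eWAT (log2 3.64, SE 0.32, adjusted p = 2.31e-05). Per 100 FPKM of Cyc1, Cycs stood at 58.7 to 76.8 in BAT, 41.1 to 51.4 in iWAT and 31.4 to 47.5 in eWAT, so the BAT libraries lay above all white ones in this ratio as well. The 7 genes that carry electrons or form the complex III core (Sdha, Sdhb, Uqcrc1, Uqcrc2, Uqcrfs1, Cyc1 and Cycs) had median log2 differences of 3.63 against iWAT and 2.89 against eWAT. For the 11 supernumerary subunits of complexes III and IV the medians were 2.51 and 2.28. Longer transcripts tended to have larger differences (rho between log2 difference and transcript length of 0.44 against iWAT and 0.33 against eWAT over the 33 genes), and the part of length in this ordering was not tested.

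The 6 nuclear subunits of cytochrome oxidase, which surround a catalytic core encoded in mitochondrial DNA (not analysed here), were all higher in BAT, with medians of 2.44 against iWAT and 2.36 against eWAT. Cox5a (chromosome 9, 57369039 to 57380231, plus strand) measured 3284, 3262 and 3425 FPKM in BAT, 784, 632 and 645 in iWAT and 598, 594 and 520.1 in eWAT. It was 4.85-fold above iWAT (log2 2.28, SE 0.20, adjusted p = 2.43e-05) and 5.82-fold above eWAT (log2 2.54, SE 0.20, adjusted p = 1.35e-05), and every iWAT library lay above every eWAT library. Cox5b, the zinc-binding subunit (chromosome 1, 36748332 to 36750230, plus strand), measured 4069, 3828 and 3828 FPKM in BAT, 846, 322 and 349 in iWAT and 899.6, 669 and 606 in eWAT. Again iWAT 2 and 3 lay far below iWAT 1. Cox5b was 8.54-fold above iWAT (log2 3.09, SE 0.35, adjusted p = 9.19e-05) and 5.46-fold above eWAT (log2 2.45, SE 0.35, adjusted p = 0.000452). Cox7b, a small membrane subunit and the only member on the X chromosome (103211039 to 103217789, plus strand), measured 1699.8, 1499 and 1437 FPKM in BAT, 262, 103 and 107 in iWAT and 217, 187 and 193 in eWAT. This was the largest difference of the complex, 10.8-fold (log2 3.43, SE 0.33, adjusted p = 4.04e-05) and 7.73-fold (log2 2.95, SE 0.33, adjusted p = 0.000107). Cox6b1, Cox6c and Cox7c were 4.31-fold to 5.71-fold above iWAT and 4.02-fold to 4.85-fold above eWAT.

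ATP synthase had the lowest medians, 2.33 against iWAT and 1.96 against eWAT, and it held every member that was not higher in BAT. Its catalytic head was high in brown fat: Atp5b, the beta subunit that forms ATP (chromosome 10, 127520329 to 127527447, plus strand), measured 2727, 2968 and 2848 FPKM in BAT, 486, 338 and 265 in iWAT and 509, 445 and 529 in eWAT. BAT was 8.07-fold above iWAT (log2 3.01, SE 0.25, adjusted p = 1.58e-05) and 5.76-fold above eWAT (log2 2.53, SE 0.25, adjusted p = 4.36e-05). Atp5a1, the alpha subunit of the same head (chromosome 18, 78012468 to 78021608, plus strand), measured 1603, 1796 and 1612 FPKM in BAT, 305, 240.4 and 219 in iWAT and 292, 307 and 329.6 in eWAT. Its differences were 6.59-fold (log2 2.72, SE 0.21, adjusted p = 1.11e-05) and 5.38-fold (log2 2.43, SE 0.21, adjusted p = 2.14e-05), and the white depots overlapped.

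Of the central stalk, which turns inside the head, Atp5c1 (gamma) stood apart from Atp5d (delta) and Atp5e (epsilon). Atp5c1 (chromosome 2, 9977643 to 10002137, minus strand) measured 575, 629 and 645 FPKM in BAT, 254, 98.9 and 109 in iWAT and 361, 311 and 284 in eWAT. All eWAT libraries lay between the iWAT and the BAT libraries. It was 4.37-fold above iWAT (log2 2.13, SE 0.33, adjusted p = 0.000563) but 1.94-fold above eWAT (log2 0.95, SE 0.33, adjusted p = 0.0470), a call that was lost in 12 of 18 alternatives (adjusted p 0.00110 to 0.407). It was lost without any single BAT or eWAT library (adjusted p 0.0510 to 0.139) and without iWAT 3 (0.0540), with log2 differences of 0.88 to 1.05. Atp5d and Atp5e were 7.20-fold and 5.87-fold above iWAT and 4.15-fold and 4.31-fold above eWAT. Per 100 FPKM of Atp5b, Atp5c1 stood at 21.1 to 22.7 in BAT, 29.3 to 52.2 in iWAT and 53.7 to 70.9 in eWAT, 3 ranges that did not overlap.

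The peripheral stalk, which holds the head still against the rotor, had medians of 2.27 against iWAT and 1.63 against eWAT, and its smallest difference was that of Atp5j, coupling factor 6 (chromosome 16, 84828111 to 84835870, minus strand). Atp5j measured 383, 356 and 334 FPKM in BAT, 333, 83.3 and 96.4 in iWAT and 424, 267 and 316 in eWAT. The BAT and eWAT values overlapped, and iWAT 1 came close to BAT while the other 2 iWAT libraries stayed far below. Against iWAT the difference was 2.56-fold (log2 1.36, SE 0.45, adjusted p = 0.0253), lost in 7 of 18 alternatives (adjusted p up to 0.144). It was lost without any single BAT library (adjusted p 0.0558 to 0.0673), without iWAT 2 (log2 0.99, adjusted p 0.0942) and without iWAT 3 (1.09, 0.0970), and it was 1.98 without iWAT 1. Against eWAT it was log2 0.12 (SE 0.45, 95% interval -0.88 to 1.11, adjusted p = 0.860). Its stalk partner Atp5o, the subunit that joins the stalk to the head, was 8.07-fold above iWAT and 4.68-fold above eWAT. Per 100 FPKM of Atp5o, Atp5j stood at 18.6 to 22.1 in BAT, 52.4 to 80.7 in iWAT and 78.1 to 93.4 in eWAT. Atp5f1 and Atp5h, the other stalk subunits, were 4.66-fold and 5.02-fold above iWAT and 3.07-fold and 3.12-fold above eWAT. Atp5j overlaps Gabpa on the opposite strand; Gabpa was at 10.5 to 10.8 FPKM in BAT and 2.28 to 4.57 in the white libraries.

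In the membrane part, Atp5j2, Atp5k and Atp5l (subunits f, e and g, of which e and g link ATP synthase dimers) had medians of 2.15 and 1.96. Atp5l (chromosome 9, 44721333 to 44728825, minus strand) measured 3394, 3007 and 3116 FPKM in BAT, 1327, 900.5 and 1043 in iWAT and 1285, 1138 and 909 in eWAT. It was 2.94-fold above iWAT (log2 1.56, SE 0.23, adjusted p = 0.000477) and 2.88-fold above eWAT (log2 1.53, SE 0.23, adjusted p = 0.000698), and its white depots overlapped fully. Under quantile normalization its log2 differences were 0.74 and 0.79, still called. Atp5l has 10 near-identical copies elsewhere in the genome (at least 95% identity over at least 50% of the transcript), so its counting is uncertain. The same holds for Atp5h with 4 copies, Uqcrb with 3, Uqcr11 and Cox5b with 2 each, and Uqcrh, Cox6c, Atp5f1, Atp5k and Atp5o with 1 each. The annotation places 14 of the 33 members over another gene, and the strand setting of the counting is not given in the sources used here.

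Atpif1, the inhibitory factor that binds the head and blocks ATP breakdown when the proton gradient falls (chromosome 4, 132086470 to 132089574, minus strand), was the only member called lower in BAT. It measured 28.2, 32.0 and 20.5 FPKM in BAT, 51.2, 22.3 and 20.4 in iWAT and 95.4, 69.5 and 44.5 in eWAT. BAT lay inside the iWAT range and below every eWAT library. The log2 difference was -0.11 against iWAT (SE 0.39, 95% interval -0.97 to 0.74, adjusted p = 0.818) and -1.30 against eWAT (2.46-fold lower, SE 0.39, adjusted p = 0.0256). The second call was lost in 6 of 18 alternatives, with adjusted p from 0.00556 to 0.0989. These included leaving out BAT 1 (log2 -1.34, adjusted p 0.0600), BAT 3 (-1.12, 0.0989), eWAT 1 (-1.04, 0.0658) or eWAT 2 (-1.27, 0.0718). Per 100 FPKM of Atp5b, Atpif1 stood at 0.719 to 1.08 in BAT, 6.59 to 10.5 in iWAT and 8.40 to 18.7 in eWAT, so the ratio of inhibitor to catalytic subunit was lower in every BAT library than in any white library. Atpif1 was the lowest member in BAT, where it ranked 2332 among all genes, while the next lowest, Atp5j, ranked 344. It was also the lowest member in iWAT, at rank 1821 beside 1294 for Cycs. In eWAT it ranked 1052, and only Cycs was lower, at 1077.

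**Figure D2:**
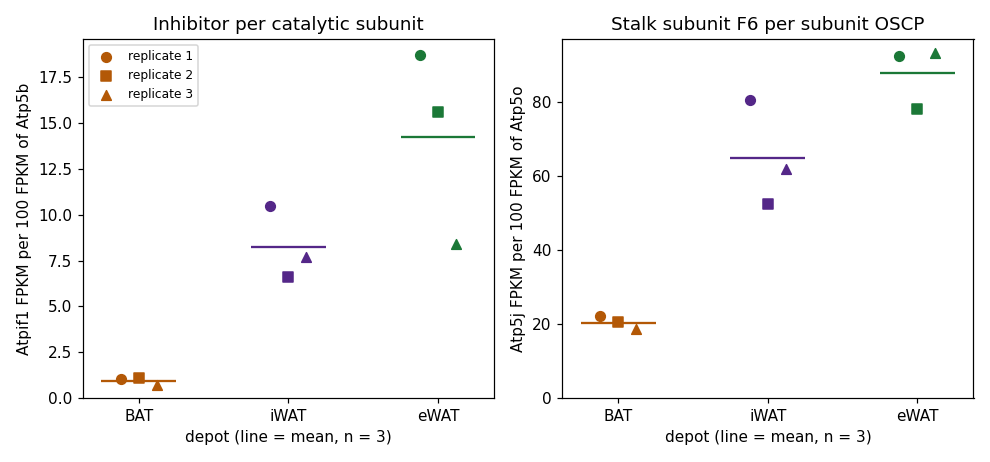
Left, Atpif1 FPKM per 100 FPKM of Atp5b; right, Atp5j FPKM per 100 FPKM of Atp5o; each point is 1 library and each line the mean of a depot (n = 3). In both ratios all BAT libraries lie below all white libraries. The BAT ratios are 0.719 to 1.08 against 6.59 or more on the left, and 18.6 to 22.1 against 52.4 or more on the right. These ratios restate the differences of the single genes and are not a separate test. Atp5o had the largest difference of the 4 peripheral stalk subunits in both comparisons with BAT.

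**Figure D3:**
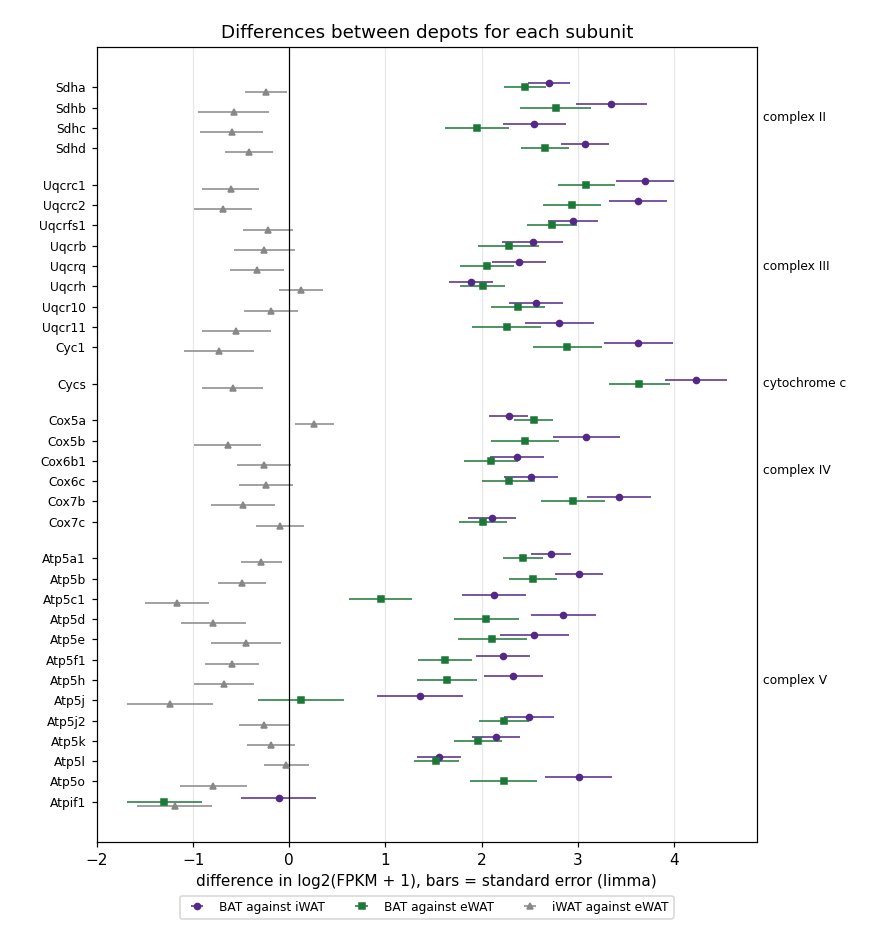
Difference in log2(FPKM + 1) for each subunit in the 3 comparisons between depots, with bars of 1 standard error from limma. Differences against iWAT run from -0.11 (Atpif1) to 4.23 (Cycs) and against eWAT from -1.30 (Atpif1) to 3.64 (Cycs), while the differences between the white depots run from -1.24 (Atp5j) to 0.26 (Cox5a).

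Between the 2 white depots no subunit passed the test. Of 33 members, 0 were called higher in iWAT (0.231% of all tested genes) and 0 lower (1.50%) with limma; at an unadjusted p under 0.05, 0 were higher (3.75% of all genes) and 7 lower (22.4%), so the share lower was near that of all genes. The median log2 difference was -0.48, against -0.18 over all genes. Groups did not overlap for Cox5a, with iWAT higher (3.10% of all genes), and for Atp5c1, with iWAT lower (19.5%). The largest differences were those of Atp5j (-1.24, SE 0.45, adjusted p = 0.136), Atpif1 (-1.19, SE 0.39, adjusted p = 0.111) and Atp5c1 (-1.17, SE 0.33, adjusted p = 0.0896). At the other end stood Cox5a (0.26, SE 0.20, adjusted p = 0.374), Uqcrh (0.12, SE 0.23, adjusted p = 0.717) and Atp5l (-0.03, SE 0.23, 95% interval -0.55 to 0.49, adjusted p = 0.936).

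This outcome rested on 1 library. iWAT 1 was the highest of the iWAT libraries for 33 of 33 members, at a median of 2.10 times the geometric mean of the other 2 (range 1.23 to 3.71), where the median over all tested genes was 1.14. Without iWAT 1, 22 members were called lower in iWAT than in eWAT, among 27.6% of all genes called lower, and the median difference was -0.89. iWAT 1 was also the deepest iWAT library. It had the highest Adipoq level, 2169 FPKM against 456 and 771, and the lowest epithelial sum, 131 FPKM against 362 and 262. Its stromal sum was the highest, 361 FPKM against 95.6 and 221, mostly from Dpt (339 against 75.4 and 204). Ly6a was at 20.8, 19.3 and 16.2 FPKM in iWAT 1 to 3, and Pdgfra was lowest in iWAT 1 (0.480 against 0.726 and 0.806). The muscle sum of iWAT 1, 2013, lay between those of iWAT 2 and 3 (2531 and 1839). That sum was mostly Acta1 (668 against 1369 and 953) and Pvalb (556 against 959 and 576), both lowest in iWAT 1. Every other muscle marker was highest in iWAT 1, such as Ckm (94.0 against 25.3 and 39.5). In eWAT, library 1 was the highest for 27 of 33 members, at a median of 1.25 times the other 2. That library had the highest estimated depth of eWAT and the lowest muscle sum, 228 FPKM against 1315 and 1110.5. Its Adipoq level, 2711 FPKM, lay between those of eWAT 2 and 3 (1856 and 2932), as did Cd36 (434 against 372 and 491). The other listed adipocyte markers, Fabp4, Plin1, Lpl and Pparg, were highest in eWAT 1, such as Plin1 (495 against 312 and 401). So were all 4 white adipocyte markers, such as Lep (178 against 144 and 158). The epithelial sum was lowest in eWAT 1, 52.9 FPKM against 179 and 155. The part of depth and of muscle, stromal, epithelial and adipocyte RNA in these gaps was not tested. The median coefficient of variation of the members was 6.68% in BAT, 47.0% in iWAT and 13.7% in eWAT.

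**Figure D4:**
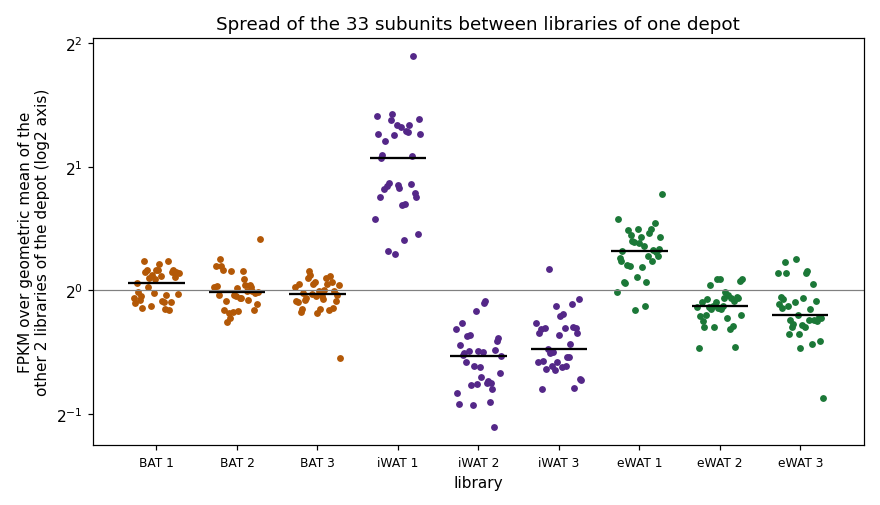
FPKM of each of the 33 subunits in a library over the geometric mean of the other 2 libraries of its depot (log2 axis), 1 point per gene, with the median as a black line. iWAT 1 lies at a median of 2.10 with all points above 1, and the BAT libraries lie close to 1 (medians 0.980 to 1.04).

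Assembly factors and accessory proteins of these complexes were mostly higher in BAT too. Of 46 listed genes, 30 were tested. Against iWAT, 26 were called higher (34.5% of all tested genes) and 0 lower (22.9%), with a median log2 difference of 2.05. Against eWAT, 24 were called higher (20.2%) and 0 lower (13.5%), with a median of 1.70. For complex II, Sdhaf1 and Acn9, both assembly factors of the iron-sulfur subunit, differed by 2.47 and 2.91 (log2) against iWAT and 1.70 and 2.09 against eWAT. Lyrm7, which helps insert the Rieske protein into complex III, measured 19.6, 14.0 and 16.7 FPKM in BAT and at most 1.41 in any white library (log2 differences 3.34, SE 0.23, adjusted p = 7.62e-06, and 3.08, SE 0.23, adjusted p = 1.08e-05). The other complex III factors with the largest differences were Uqcc (2.33 and 2.06) and Bcs1l (1.81 and 2.03), the translocase of the Rieske protein. Hccs, which attaches heme to cytochromes c and c1, differed by 2.33 and 1.92, and Cox10 and Cox15, which make the heme A of the oxidase, by 2.05 and 2.25 against iWAT and 1.87 and 1.62 against eWAT.

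Among the oxidase factors, 12 of 14 tested were higher than in iWAT and 9 of 14 higher than in eWAT, beside the same 34.5% and 20.2% of all genes. They included the copper carriers Cox17 (2.32 and 2.12) and Sco2 (2.81 and 1.85), the translation activator Taco1 (2.16 and 2.09) and Higd1a (2.81 and 1.71). All 6 tested complex V genes were higher in both comparisons, among them Usmg5, a small protein of the ATP synthase membrane part, at 1909 to 2374 FPKM in BAT and 254 to 587 in the white libraries (2.62 and 2.10), and the assembly factor Tmem70 (2.30 and 2.02). No assembly or accessory gene was called in either direction between iWAT and eWAT by limma (at an unadjusted p under 0.05, 0 of 30 higher and 6 lower, beside 3.75% and 22.4% of all genes). Of 37 genes listed here as complex I subunits, 37 were higher than in iWAT (median 2.19, beside 34.5% of all genes called higher). Against eWAT, 36 were higher (median 1.88, beside 20.2%). Of 12 tested oxidase isoform and subunit c genes outside the 33, 9 were higher (34.5% of all genes) and 3 lower (22.9%) than in iWAT, and 9 were higher (20.2%) and 2 lower (13.5%) than in eWAT. Cox7a1 (7.29 and 8.30) and Cox8b (5.58 and 8.25) had the largest differences. The lower ones, of which Atp5g3 is named after its values were seen, were the subunit c genes Atp5g1 (-2.17 and -3.21) and Atp5g3 (-1.56 and -1.37), and, against iWAT, Cox6a2, listed at 0 in all BAT libraries and at 5.50 to 18.8 FPKM in iWAT. Cox6a2 was at 0, 3.44 and 2.75 FPKM in eWAT 1 to 3, where the muscle marker sums were 228, 1315 and 1110.5 FPKM. In iWAT 1 to 3 it was at 18.8, 5.50 and 5.86, beside muscle sums of 2013, 2531 and 1839. The muscle sums in BAT were 63.4 to 155 FPKM, and the part of muscle RNA in the Cox6a2 difference was not tested. Cox8b was also called higher in iWAT than in eWAT (2.67, SE 0.27, adjusted p = 0.00125).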

How the data were processed

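Ribosome-bound RNA of 9 libraries (3 each of BAT, iWAT and eWAT) was depleted of ribosomal RNA and sequenced single-end, per the labels' protocols. TopHat and Cufflinks are named with mm9 in the submitters' processing notes; versions, annotation, filters and strand setting are not given in the sources used here. The deposited values are read as FPKM made by the authors, the unit that Cufflinks gives, because no unit stands in the header. The table has 22996 lines for 22527 symbols; 259 symbols, none a member, were repeated and kept by their highest mean.

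Values were taken as log2(FPKM + 1). limma 3.58.1 under R 4.3.3 fitted all 9 libraries with a mean per depot (6 residual degrees of freedom) and moderated variances that follow the level. The 10374 genes that reached 1 FPKM in 3 or more libraries were tested, with Benjamini-Hochberg adjustment over all of them. Fold changes are on the FPKM + 1 scale. The fit and the depth estimate were tested on simulated data. Depth came from the single-read steps of low FPKM values, of which 44% to 63.6% lay near whole reads, and is approximate. The depth was chosen to bring these values close to whole reads, so the shares do not test it. The lowest share, 44%, was that of eWAT 1 (16.2 M reads). Gene positions are from GENCODE vM1 on mm9; copies were found with BLAST 2.17.0. Python 3.11.15 and matplotlib 3.10.9 were used.

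The members, lists and tests were chosen with earlier results of these data known. Values in every library are given for members at the catalytic or electron-carrying centres, for the 3 largest and 3 smallest differences of each comparison, and for members called against the majority or not called; of each other list, up to 4 called genes with the largest differences could be named. Replicate numbers are not said to mark an animal. Deviations from the depot mean correlated at 0.634, 0.534 and 0.165 between same-numbered iWAT and eWAT libraries, all over 0.1, a pairing that comes from the values alone. Differently numbered iWAT and eWAT libraries ran from -0.576 to 0.228, with iWAT 2 and eWAT 3 at 0.228 and iWAT 3 and eWAT 2 at 0.105. Against BAT, same-numbered libraries ran from -0.388 to 0.121 and differently numbered ones from -0.314 to 0.374. The fit was repeated with quantile normalization, with median-ratio scaling, with a pseudocount of 0.1, with no filter or one at a mean of 5 FPKM, on 2 depots at a time, with the replicate block, with a minimum log2 difference of 1, without each library and without eWAT 2 and 3.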

Additional observations from a re-analysis of the deposited data

How the results depend on the processing

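The number of members called higher in BAT stayed at 31 or 32 against iWAT in every alternative run, and at 30 or 31 against eWAT except without eWAT 2 and 3 (23). Members called lower in BAT than in eWAT numbered 1 (Atpif1), but 0 with no filter on low values, 0 without eWAT 2 and 3 together, and 0 to 1 when single libraries were left out (0 without BAT 1, BAT 3, eWAT 1 or eWAT 2). Members called lower in iWAT than in eWAT numbered 0, and 0 to 22 when single libraries were left out, with 22 without iWAT 1. With the replicate number as a replicate block, the counts were 32 higher against iWAT and 31 higher against eWAT, and the block changed no call of a member. Over single members and alternatives, 1728 results kept their side of the threshold, 32 lost a call, 22 gained one, and no called difference changed sign. Of the 1728, 18 changed sign, for 9 members, and none of these differences was called. Quantile normalization called 2936 of all genes higher and 2851 lower in BAT against iWAT, where 3583 and 2378 were called without it. Median-ratio scaling moved the median of all genes from 0.23 to 0.13 and that of the members from 2.55 to 2.43 in that comparison. The causes of these shifts were not tested. Estimated depth was lowest in iWAT (2.91 to 4.65 M reads) and in eWAT 2 and 3 (4.45 and 4.58 M), and its effect on the calls was not tested.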
